A study of Mus musculus with 8 samples.

Results

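The enzymes that supply deoxynucleotides, the building blocks of DNA, were followed in mouse embryonic stem (ES) cells treated with cisplatin. The 9 genes are Rrm1, Rrm2, Rrm2b, Tyms, Tk1, Tk2, Dck, Dut and Samhd1. They were found as every probe set of the array whose only annotated gene symbol is one of these names, which gave 20 of 28898 probe sets and 9 of 17098 genes. Where a gene has several probe sets, the one with the highest mean over all 8 arrays leads.

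The treated group is 4 arrays of ES cells kept for 8 h in medium with 2.5 µM cisplatin, a platinum drug that crosslinks DNA. The control group is 4 arrays of the same cells kept for 8 h with the solvent DMSO. Cells of both groups carry the label HPRT deficient, come from strain C57BL/6 and were at passages 19 to 22; they had grown on feeder cells and then on gelatin before the experiment. Expression was read on microarrays, where a probe set is a group of short probes that report one transcript. Nothing in the labels says that the 4 replicates were separate cultures, and the p-values therefore cover only the spread among the arrays given, possibly a technical one.

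Ribonucleotide reductase turns ribonucleotides into deoxyribonucleotides and is the slow step of the supply. Its large subunit RRM1 pairs either with RRM2, the small subunit made for S phase, or with p53R2, the product of Rrm2b, a small subunit that p53 induces and that serves repair and mitochondrial DNA in cells that do not divide. Thymidylate is made from deoxyuridylate or recovered from thymidine, other deoxynucleosides are recovered by kinases, and SAMHD1 breaks deoxynucleotides down again. ES cells divide fast and spend much of their cycle in S phase.

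Facts of the whole table that bear on these genes are few. Over all genes, pairs of arrays had correlations of 0.997 to 0.998 inside a group and of 0.992 to 0.995 across groups. Of 17098 genes tested with limma, 1989 were higher with cisplatin and 1314 lower at a Benjamini-Hochberg adjusted p under 0.05. Probes that match no transcript and hold 24 G or C in 25 bases read 3.10 on the log2 scale, which is used here as background. Such probes read 2.24 with 12 G or C, 2.44 with 17 and 4.89 with 25. Which probe sets count as below background therefore depends on this choice. The 9 ES cell markers measured kept list means of 10.85 to 10.90 on the cisplatin arrays and 11.07 to 11.10 on the control arrays; 5 of the 9 were lower and none was higher. Feeder fibroblast markers had list means of 3.54 to 3.87 with cisplatin and 3.52 to 3.74 in the controls. Of the 20, 7 lay below background on all arrays, Col1a2, Dcn and Lum among them. Others were clearly above it, such as Acta2, with means of 8.58 with cisplatin and 8.43 in the controls, and Col5a1, with 5.78 and 5.97. Hprt, whose product recovers purine bases, read 4.69, 5.03, 4.91 and 4.74 on the cisplatin arrays and 4.37, 4.99, 4.84 and 4.21 on the control arrays. The labels do not say how the gene was inactivated or whether its probes lie in the altered part, so this level checks nothing about the deficiency.

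Promoter sequences are shown for the large and the S phase subunit of ribonucleotide reductase and for Dck, since Rrm2 and Dck rose and every array of Rrm1 also lay above the controls. They are the 250 bases before the annotated start in RefSeq, build GRCm38.p6, all on the plus strand, and 8 of the 9 members had an entry in that table, all except Rrm2b. The start is that of the transcript in the table, so the windows of Tyms, Tk1, Tk2 and Dut run partly or, for Dut, wholly into the gene span given below; those of Rrm1, Rrm2, Dck and Samhd1 end right before it. Capitals mark matches to the CCAAT box (CCAAT, read by the factor NF-Y), to the cell cycle homology region (TTTGAA or TTCGAA) or to a strict E2F site (TTTCCCGC, TTTGGCGC, TTTCGCGC or TTTGCCGC), each searched on both strands with no overlap between matches of different motifs.
Rrm1, chr7:102441445-102441694: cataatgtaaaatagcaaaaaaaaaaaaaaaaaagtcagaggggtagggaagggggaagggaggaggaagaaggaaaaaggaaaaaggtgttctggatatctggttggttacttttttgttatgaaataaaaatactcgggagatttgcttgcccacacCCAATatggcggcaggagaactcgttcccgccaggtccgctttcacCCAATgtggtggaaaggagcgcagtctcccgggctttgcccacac
Rrm2, chr12:24708004-24708253: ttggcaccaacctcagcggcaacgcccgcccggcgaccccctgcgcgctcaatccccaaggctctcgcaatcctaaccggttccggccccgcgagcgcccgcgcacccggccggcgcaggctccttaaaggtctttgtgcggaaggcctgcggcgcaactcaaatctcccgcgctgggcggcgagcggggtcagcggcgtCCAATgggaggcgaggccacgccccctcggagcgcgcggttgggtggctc
Dck, chr5:88764763-88765012: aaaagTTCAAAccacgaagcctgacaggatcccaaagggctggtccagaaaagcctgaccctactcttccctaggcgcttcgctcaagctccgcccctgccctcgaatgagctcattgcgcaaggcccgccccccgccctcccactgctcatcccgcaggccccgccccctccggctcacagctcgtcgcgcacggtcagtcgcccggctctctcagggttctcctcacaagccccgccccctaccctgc

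The Rrm1 window held CCAAT at 91 and 45 bases before the start and the Rrm2 window at 50 bases before it, while no CCAAT was found in the other 6 member windows. Over all 32851 promoter windows of this length 33.8% held a CCAAT. The cell cycle homology letters were present in Dck, 245 bases before the start, and in Tk2, 107 bases before it, against 17.1% of all windows. The strict E2F letters were in none of the 8 windows and in 1.86% of all windows. These matches describe letters only, and none is shown to be a bound site.

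Of the 9 genes, 3 rose with cisplatin, none fell and 6 did not pass the test. Rrm2b rose by 0.53 ± 0.08 (log2 fold change ± SE, 4 arrays against 4), Rrm2 by 0.26 ± 0.06 and Dck by 0.26 ± 0.06. Over all genes 11.6% were called higher and 7.69% lower. None of the 9 reached a 2-fold change. The log2 fold changes ran from -0.08 for Dut to 0.53 for Rrm2b with a median of 0.15, against 0.01 for all genes, and 8 of the 9 were above 0, as were 53.5% of all genes. For 4 members (Rrm1, Rrm2, Rrm2b and Dck) all cisplatin arrays lay above all control arrays, which held for 14.2% of all genes. The reverse held for no member and for 10.1% of all genes. These shares are descriptions of a chosen list and carry no test of the list.

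**Figure D1:**
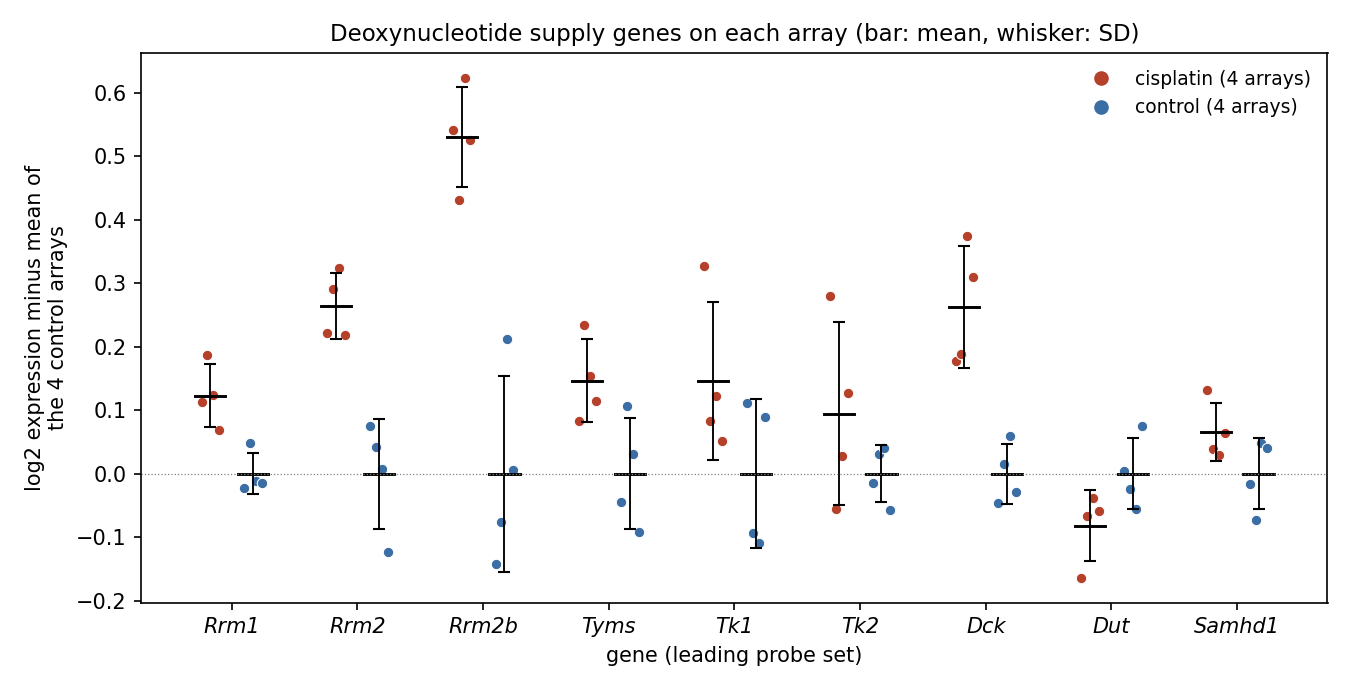
Log2 expression of the 9 genes by their leading probe sets (x axis), on each of 4 cisplatin and 4 control arrays, as the log2 difference from the mean of the gene's control arrays (y axis); bars are group means and whiskers SD. The Rrm2b cisplatin points stand 0.53 above the controls on average, Rrm2 and Dck 0.26, and the groups overlap for Tyms, Tk1, Tk2, Dut and Samhd1.

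One setting bears on several of these calls and directions. The medians of the arrays over the tested genes differed by 0.13 between the groups, and centring each array on its median lowers every change by that amount. Over all probe sets of the table the medians were alike, at 3.35 to 3.38 on the cisplatin arrays and 3.36 to 3.37 on the control arrays. The submitters' notes name RMA, which scales whole arrays to each other, so this likeness cannot show where the shift arises. The 0.13 is a difference of array medians, while the median change of the tested genes was 0.01. After centring, the median of the 9 genes was 0.02 (all genes -0.12), Rrm2b alone was called higher at 0.40 (limma adjusted p = 0.00488), and Dut was called lower at -0.21 (adjusted p = 0.0190), while 6.36% of all genes were then called higher and 23% lower. Rrm2 and Dck were then at 0.13 each (adjusted p = 0.113 and 0.112). All 9 members lie above 4.61, the median expression of the tested genes. For genes above it the change without centring had a mean of 0.04 and a median of 0.02.

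Rrm2b, at chr15:37923952-37961119 (GRCm38.p6), encodes the p53-inducible small subunit. Its leading probe set 1433773_PM_at read 5.74, 5.63, 5.82 and 5.72 on the cisplatin arrays and 5.06, 5.12, 5.41 and 5.20 on the control arrays. Every cisplatin array was above the highest control, replicate 5, and the cisplatin values were closer together than the control values. The change was 1.44-fold, with a 95% interval of 1.27 to 1.64 and an adjusted p of 0.00142 (limma), and leaving out any 1 array kept it between 0.48 and 0.60 with adjusted p-values up to 0.00595.

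The other Rrm2b probe sets divided by brightness. The probe set 1437476_PM_at read 5.17, 5.44, 5.67 and 5.49 with cisplatin and 5.07, 5.12, 5.01 and 5.04 in the controls. Its groups also did not overlap, and it rose by 0.38 ± 0.10 (adjusted p = 0.0203 over all 28898 probe sets). The remaining pair, 1437221_PM_at and 1437222_PM_x_at, lay below background on all arrays, at 2.36 to 2.86, and had changes of 0.08 each. Averaging all 4 probe sets therefore gave a smaller change for the gene, 0.27 (adjusted p = 0.00789).

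Rrm2, at chr12:24708254-24714146, encodes the S phase small subunit, which dividing cells degrade after replication. Its leading probe set 1448226_PM_at read 11.09, 11.16, 11.20 and 11.09 on the cisplatin arrays and 10.95, 10.91, 10.88 and 10.75 on the control arrays. The groups did not overlap, though the lowest cisplatin array stood only slightly above control replicate 3. The change was 1.20-fold (95% interval 1.09 to 1.32, limma adjusted p = 0.0118).

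The second Rrm2 probe set, 1416120_PM_at, read 10.33, 10.30, 10.48 and 10.21 with cisplatin and 10.10, 10.22, 10.02 and 10.01 in the controls. Here cisplatin replicate 6 fell within the control range. Its change of 0.24 ± 0.07 was close to that of the leading one but did not pass over all probe sets (adjusted p = 0.0510), and used for the gene as its most variable probe set it also missed the threshold (adjusted p = 0.0565).

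Rrm1, at chr7:102441695-102469771, encodes the large subunit, which holds the catalytic and allosteric sites. It read 10.13, 10.20, 10.14 and 10.08 on the cisplatin arrays and 9.99, 10.06, 10.00 and 10.00 on the control arrays by 1415878_PM_at. All cisplatin values were higher than all control values, but by little. The change of 0.12 ± 0.05 did not pass (adjusted p = 0.124, 95% interval 1.01-fold to 1.18-fold). The second probe set, 1448127_PM_at, was at 0.19 ± 0.06 (adjusted p = 0.0637) and its groups did not overlap either. With the mean of both probe sets Rrm1 was at 0.16 and passed (adjusted p = 0.0477), and it passed at its 0.12 with an intensity trend in the variance model (adjusted p = 0.0243). After centring it was at -0.01.

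Rrm2 was then set against Rrm2b, the small subunits that compete for the same partner. On each array the log2 value of Rrm2 was subtracted from that of Rrm2b, and this difference was compared between the groups. A probe set's brightness depends on its sequence, so the difference itself gives no ratio of the transcripts. Its shift between groups shows how unequally the signals of the chosen probe sets changed. Whether the transcripts changed by the same amounts as these signals was not tested. For Rrm2b, the probe sets above background gave changes of 0.53 and 0.38. By the leading probe sets the difference was -5.35, -5.53, -5.37 and -5.37 on the cisplatin arrays and -5.89, -5.79, -5.47 and -5.54 on the control arrays. Cisplatin replicate 4 lay just below control replicate 5, and the control differences were spread more widely than the treated ones.

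The mean difference was -5.41 ± 0.08 with cisplatin and -5.67 ± 0.20 in the controls (SD, n = 4 each), a shift of 0.27 toward Rrm2b. The two-sided exact permutation test over the 70 assignments of the arrays gave p = 0.0571, where 0.0286 is the smallest it can give. Shifts from -0.065 to 0.535 were not rejected by the same test at 0.05. The difference between the rises of Rrm2b and Rrm2 therefore did not pass against the spread between arrays.

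The other pairings of probe sets above background gave smaller or similar shifts. With 1416120_PM_at for Rrm2 the shift was 0.29 (exact p = 0.0857). With 1437476_PM_at for Rrm2b it was 0.12 against the leading Rrm2 probe set (exact p = 0.286) and 0.14 against the second (exact p = 0.200). Adjusted over the 4 pairs, the exact p-values ran from 0.171 to 0.286. In the 2 pairs with 1437476_PM_at, cisplatin replicate 3 was lower than every control. With the mean of all probe sets of each gene the shift was 0.01 (exact p = 0.886), the mean of Rrm2b then holding its pair of probe sets below background.

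**Figure D2:**
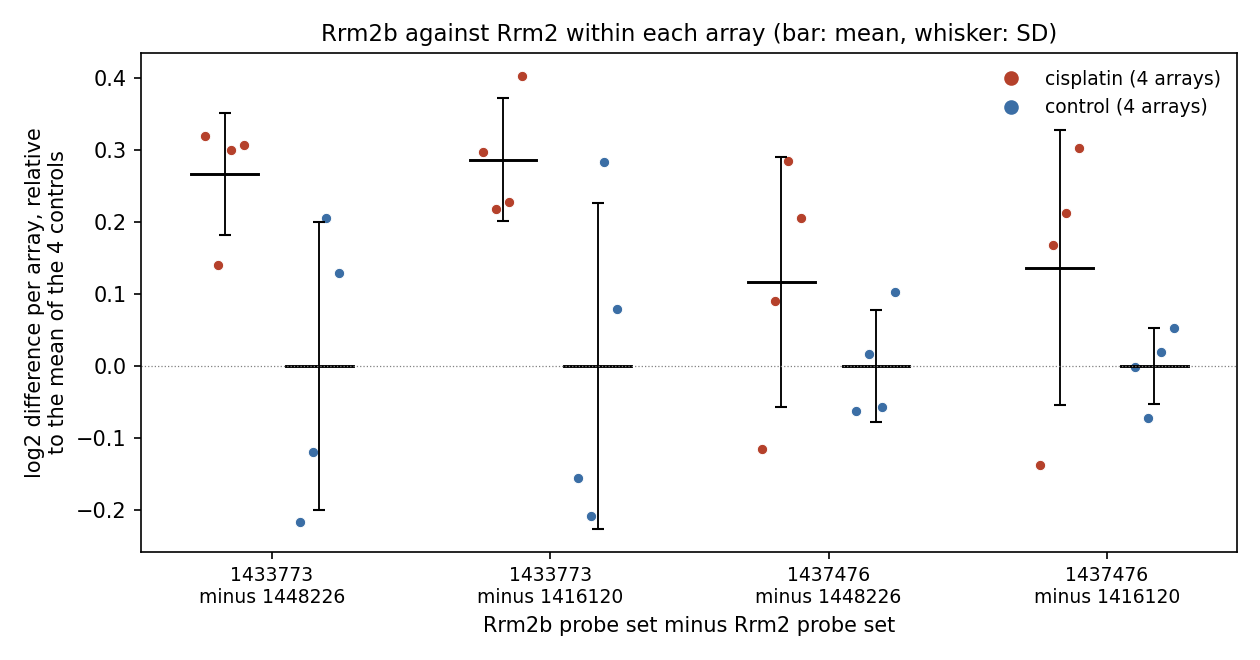
Log2 value of an Rrm2b probe set minus that of an Rrm2 probe set on each array, shown relative to the mean of the 4 control arrays (y axis), for the 4 pairs of probe sets above background (x axis); bars are means and whiskers SD. The cisplatin means stand 0.27, 0.29, 0.12 and 0.14 above the controls, and in every pair the groups overlap.

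The genes of thymidylate supply did not pass the test. Tyms, at chr5:30038546-30073645, encodes thymidylate synthase, which methylates deoxyuridylate. By 1424991_PM_s_at it read 10.45, 10.60, 10.52 and 10.48 with cisplatin and 10.32, 10.47, 10.40 and 10.28 in the controls. The groups overlapped at 1 array each, cisplatin replicate 3 and control replicate 4. The change was 0.15 ± 0.06 (limma adjusted p = 0.137, 95% interval 1.01-fold to 1.22-fold), and with an intensity trend it passed (adjusted p = 0.0289).

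The ending _s_ in this probe set's name marks probes that can match several transcripts, and the array also has a probe set for the pseudogene Tyms-ps, which lay below background on all arrays. Without probe sets of this kind, an alternative added after seeing the data, 3 members were again called higher and none lower. The other 4 Tyms probe sets were dim, at 3.45 to 4.87 for 1442192_PM_at and 1438690_PM_at together and below background for 1427810_PM_at and 1427811_PM_at. Their changes ran from -0.04 to 0.25 and none passed.

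Dut, at chr2:125247248-125259049, encodes the enzyme that removes dUTP and yields the substrate of thymidylate synthase. Its leading probe set 1419270_PM_a_at read 10.68, 10.77, 10.80 and 10.78 with cisplatin and 10.84, 10.81, 10.78 and 10.91 in the controls. It was the 1 member whose change was below 0, at -0.08 ± 0.05 (adjusted p = 0.357, 95% interval 0.87-fold to 1.03-fold). The dimmer probe set 1419269_PM_at was at -0.20 ± 0.10 (adjusted p = 0.235), with overlapping groups.

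Tk1, at chr11:117815519-117826087, encodes cytosolic thymidine kinase, an enzyme of S phase that recovers thymidine. Its probe set read 9.07, 8.83, 8.87 and 8.80 with cisplatin and 8.86, 8.65, 8.63 and 8.83 in the controls. Cisplatin replicate 3 was the highest array, and the other cisplatin arrays lay within or just above the control range. The change was 0.15 ± 0.08 with all arrays and 0.09 without that replicate (adjusted p = 0.260 and 0.507; 95% interval 0.98-fold to 1.25-fold with all arrays).

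Among the other kinases of deoxynucleoside recovery, Dck rose and Tk2 did not pass. Dck, at chr5:88765013-88783277, encodes deoxycytidine kinase, which also accepts deoxyadenosine and deoxyguanosine. Its 1 probe set read 8.23, 8.24, 8.43 and 8.36 on the cisplatin arrays and 8.01, 8.07, 8.11 and 8.03 on the control arrays. The groups did not overlap, and cisplatin replicates 5 and 6 were the highest. The change was 1.20-fold (95% interval 1.09 to 1.32, limma adjusted p = 0.0136), and leaving out any 1 array kept it called with adjusted p-values up to 0.0431.

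Tk2, at chr8:104226691-104248592, encodes the mitochondrial thymidine kinase. It read 6.21, 5.88, 5.96 and 6.06 with cisplatin and 5.92, 5.96, 5.97 and 5.87 in the controls, so the control range lay nearly within the treated range. The change was 0.09 ± 0.07 (adjusted p = 0.447, 95% interval 0.95-fold to 1.20-fold) and -0.04 after centring.

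Samhd1, at chr2:157097534-157135096, encodes the phosphohydrolase that lowers deoxynucleotide pools. By 1418131_PM_at it read 8.02, 7.93, 7.92 and 7.95 with cisplatin and 7.87, 7.82, 7.94 and 7.93 in the controls. The groups overlapped and the change was 0.07 ± 0.05 (adjusted p = 0.457, 95% interval 0.96-fold to 1.14-fold), turning to -0.06 after centring. Its second probe set was at 0.04 ± 0.06 (adjusted p = 0.781).

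Across all 20 probe sets 4 were called higher and none lower, against 8.6% of all 28898 probe sets called higher. The 4 were the leading probe sets of Rrm2, Rrm2b and Dck and the second one of Rrm2b. Another 4 probe sets lay below background on all arrays, and of the 16 that did not, 14 had a change above 0, the exceptions being those of Dut. Several of the 16 belong to the same gene, and over all genes 53.5% had a change above 0. Over all probe sets neither that share nor the share called lower was counted. No member had probe sets called in opposite directions.

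**Figure D3:**
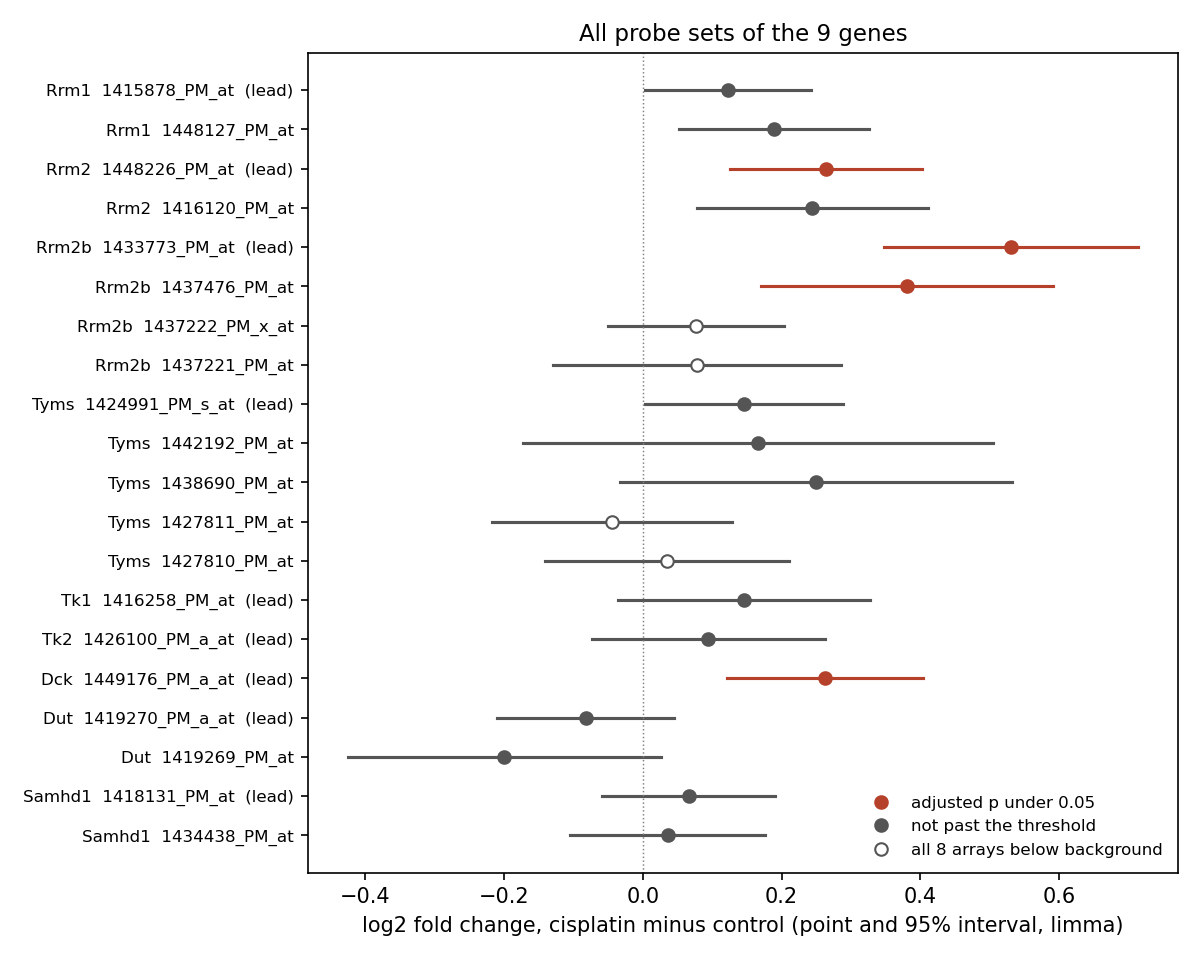
Log2 fold change, cisplatin minus control, with its 95% interval from limma (x axis) for the 20 probe sets of the 9 genes (y axis); red marks an adjusted p under 0.05 over 28898 probe sets and open circles mark probe sets below background on all 8 arrays. The 4 red intervals belong to Rrm2b, Rrm2 and Dck. The points of the Dut probe sets and of the Tyms probe set 1427811_PM_at lie left of 0, with intervals that cross 0.

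Other genes of nucleotide supply moved in both directions. Of 59 genes listed in 5 groups 49 were measured here; 9 were higher, 2 lower and 38 did not pass, with a median of 0.06. That is 18.4% higher and 4.08% lower, against 11.6% and 7.69% of all genes. After centring, 4 of the 49 were higher and 10 lower, against 6.36% higher and 23% lower over all genes, and the median was -0.07 (all genes -0.12).

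The changes lay mostly in the list of nucleoside salvage, kinases and breakdown, where 6 of 20 genes were higher and 2 lower. Ada, which encodes adenosine deaminase and also clears deoxyadenosine, read 7.61, 7.76, 7.65 and 7.75 on the cisplatin arrays and 6.88, 6.90, 6.67 and 6.84 on the control arrays. The groups lay far apart relative to their spread, and the rise of 0.87 ± 0.07 (1.83-fold, adjusted p = 3.79e-05) was larger than that of any of the 9 enzymes. Nt5c, which encodes a cytosolic nucleotidase that removes phosphate from deoxynucleotides, rose by 0.45 ± 0.07 (adjusted p = 0.00138).

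The uridine and cytidine kinase genes went opposite ways, Uck1 rising by 0.32 ± 0.07 and Uck2 falling by 0.51 ± 0.05 on the log2 scale (adjusted p = 0.0123 and 9.82e-05). Aprt, which recovers adenine, rose by 0.23 ± 0.06, Guk1, guanylate kinase, by 0.23 ± 0.05, and Nudt1, which removes oxidised purine nucleotides, by 0.22 ± 0.05. Nt5e, a surface nucleotidase gene, fell by 0.49 ± 0.14 on the log2 scale (adjusted p = 0.0314), with overlapping groups. This fall missed the threshold when any of cisplatin replicates 4 to 6 or of control replicates 3 to 5 was left out (adjusted p up to 0.0870) and with the mean of its probe sets (-0.18, adjusted p = 0.159).

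In purine synthesis 2 of 11 genes were higher and none lower. Prps2, which makes the sugar phosphate that starts the pathway, rose by 0.26 ± 0.07. Adssl1, an adenylosuccinate synthase gene known from muscle, rose by 0.77 ± 0.14 at a low level, 3.95 with cisplatin and 3.18 in the controls against 3.10 for background. In pyrimidine synthesis Cad, which encodes the enzyme of the opening steps, rose by 0.33 ± 0.06 (adjusted p = 0.00489), the 1 gene of 5 to pass. None of the 8 genes listed as linked to ribonucleotide reductase, such as the thioredoxin genes, passed (limma). The same held for 5 genes of the thymidylate and folate cycle. At an unadjusted limma p under 0.05 these lists held 2 genes and 1.

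The smaller changes depended on the setting or on single arrays. After centring the calls of Uck1, Aprt, Guk1, Nudt1 and Prps2 were lost (adjusted p from 0.0585 for Uck1 to 0.305 for Nudt1). The call of Aprt also ended with its most variable probe set (adjusted p = 0.0629) and when cisplatin replicate 3, cisplatin replicate 4 or control replicate 5 was left out (up to 0.0658). That of Nudt1 was lost without cisplatin replicate 6 or control replicate 3 (up to 0.0525), and that of Prps2 without cisplatin replicate 5 or control replicate 3, 4 or 6 (up to 0.0555).

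**Figure D4:**
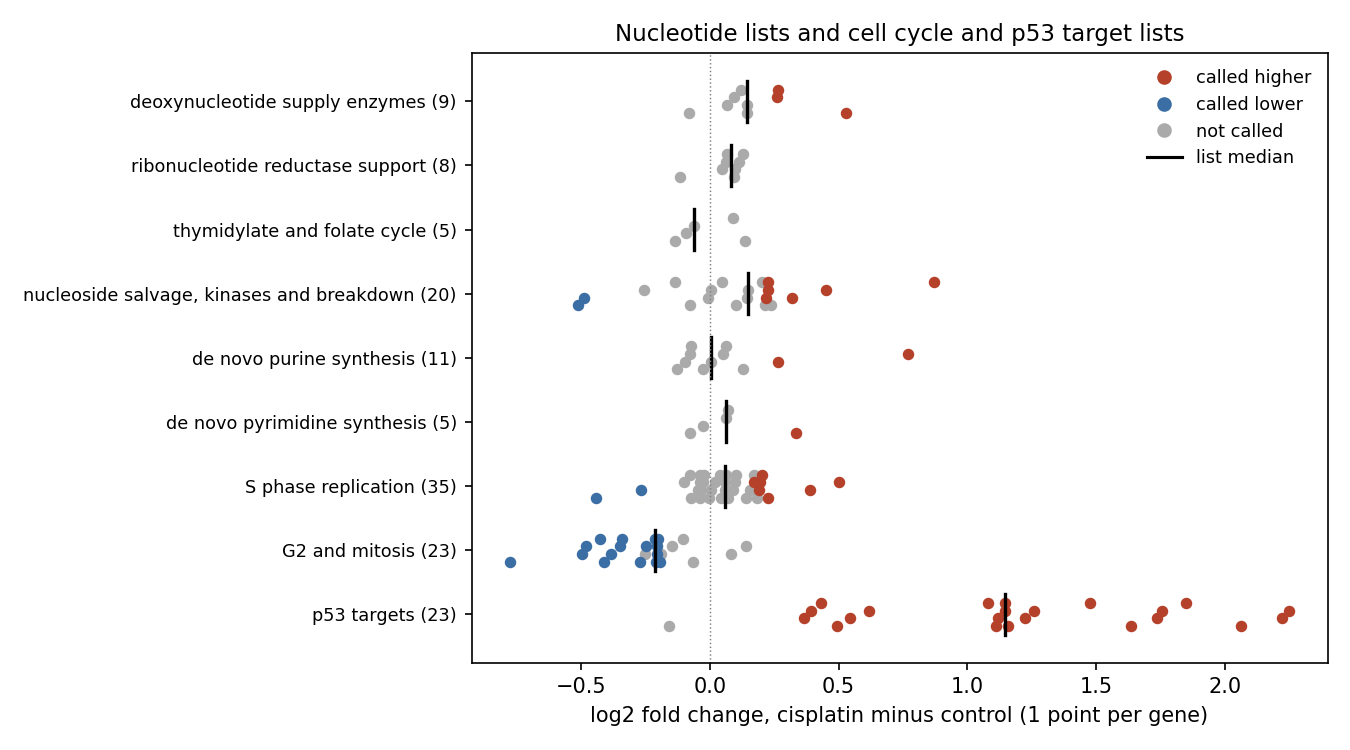
Log2 fold change, cisplatin minus control (x axis), of each measured gene in the 9 enzymes, 5 lists of other nucleotide genes, and lists of S phase, G2 and mitosis, and p53 target genes (y axis, number measured in brackets); black bars are list medians. The 9 enzymes have a median of 0.15 and the S phase list one of 0.06, while the G2 and mitosis list is at -0.21 and the p53 targets at 1.15.

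Genes of the cell cycle and of the p53 response moved on the same arrays. Of 35 S phase replication genes 7 were higher (20%) and 2 lower (5.71%), against 11.6% and 7.69% of all genes. The list median was 0.06 (-0.07 after centring), against 0.01 (-0.12) for all genes. The cyclin gene Ccne2 rose by 0.39 ± 0.06, and the replication polymerase gene Pola1 had a change of -0.44 ± 0.07 and was called lower. Of 23 genes of G2 and mitosis 16 fell (69.6%, against the 7.69% of all genes) and none rose, the median change being -0.21. The mean over that list was 9.35 to 9.41 on the cisplatin arrays and 9.63 to 9.68 on the control arrays. The part of cell cycle stage in the changes of Rrm2 and Dck was not tested, and in bulk samples a smaller share of cells in a stage and less RNA per cell cannot be told apart.

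Rrm2b is itself a known p53 target. Of 23 other target genes measured 22 rose (95.7%, against 11.6% of all genes) and none fell, with a median change of 1.15. That list was written with earlier results of these data known, so its counts and the place of Rrm2b in it are descriptions only. The rise of Rrm2b was smaller than that of 18 of the 23, and larger than that of 5, which included Sesn1, a stress-induced regulator of growth signalling, at 0.49 ± 0.09. The antiproliferative gene Btg2, for comparison, rose by 2.22 ± 0.12.

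Feeder fibroblast markers had 3 of 20 genes higher, near the 11.6% of all genes, and none lower. Mmp2 rose by 0.60 ± 0.08, Thy1 by 0.61 ± 0.15, lost without control replicate 3 (adjusted p = 0.0519), and Fbln2, below background in both groups, by 0.20 ± 0.05, a call lost after centring (adjusted p = 0.351) and with either of cisplatin replicates 5 and 6 or any of control replicates 3 to 5 left out (up to 0.0728). The list's median change was 0.03, and its part in the values of the 9 enzymes was not tested.

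As a description over the 8 arrays, in which the group difference takes part, the genes most like Rrm2 were Akr1b10 (Pearson r = 0.989), 1500009L16Rik (0.988) and Cnst (0.987). Those most like Rrm2b were 3110040N11Rik (0.989), Psmb6, a proteasome subunit gene (0.987), and Eci1, of fatty acid oxidation (0.985).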

How the data were processed

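Per the labels' protocols, total RNA of 8 samples was copied from its 3′ end, labelled with biotin and hybridised to 1 array each. Log2 values of all probe sets were deposited by the authors as 1 table; the submitters' processing notes name RMA and limma, without versions. RMA scales the arrays to each other, which hides any shift in RNA content per cell. Of 45141 probe sets 28898 have 1 annotated gene (17098 genes), 551 several, and 15588 besides 104 controls none listed. Symbols were updated through Entrez identifiers in RefSeq (GRCm38.p6), which held 16937 of the genes on the array. Groups come from the sample titles.

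Cisplatin was compared with control with limma 3.58.1 in R 4.3.3 (lmFit, eBayes, group as the only term, all 8 arrays), with Benjamini-Hochberg adjustment over all genes, or all probe sets, and a threshold of 0.05. No dim genes were left out. For single values two-sided exact permutation tests were used. On simulated data for these 17098 genes, 98 of 100 genes changed by 1 on the log2 scale and 70 of 100 changed by 0.5 were recovered, with 10 false calls. Far fewer genes were changed there than were called in the real data, and no change smaller than 0.5 was simulated. The recovery of smaller changes is therefore not known. The number of arrays limits the precision. The median standard error was 0.08. The members and lists were chosen with earlier results of these data known, the lists from textbook knowledge. Named are all members, every called nucleotide gene and Hprt, and up to 2 called genes a direction of other lists. The 3 genes most correlated with Rrm2 and with Rrm2b are named too. Sesn1, Fbln2, Acta2, Col5a1 and the markers given as below background were named after their values were seen. Alternatives covered probe set choice, dim genes, normalization, centring, the variance model, a replicate block and each array left out. Figures used matplotlib 3.10.9 in Python 3.11.15.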

Additional observations from a re-analysis of the deposited data

Results flagged for a closer look

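Of 42 groups of 4 arrays examined, 3 held an array whose gap to its nearest neighbour was a larger share of the group's range than Dixon's 95% critical value, which chance passes in about 1 in 20 groups. In the Rrm2b minus Rrm2 difference, cisplatin replicate 4 lay below the other 3 treated arrays, and the gap was 0.887 of the range. For Rrm1 by its leading probe set, control replicate 4 was higher than the other 3 controls, with a gap of 0.854 of a range of only 0.07 on the log2 scale. For the Rrm2b probe set 1437222_PM_x_at, below background on all arrays, control replicate 4 was again the highest, with 0.848.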

How the results depend on the processing

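The count of 3 members higher and none lower was 1 higher and 1 lower after centring the arrays and 5 higher with an intensity trend; it stayed within 1.5 times under the other alternatives run, and leaving out each array gave 3 higher in every case. Rrm2b was called under all 17 alternatives. After centring, Rrm1, Tk2 and Samhd1 turned to -0.00745, -0.0361 and -0.0644. The count of 4 member probe sets called was 8 with an intensity trend and 3 to 5 with an array left out. Of the other nucleotide genes, 9 higher became 4 after centring and 15 with an intensity trend. The 2 lower became 10 after centring, 4 with an intensity trend, 1 with the mean of the probe sets, and 1 to 2 with an array left out. Over the whole table centring gave 1087 higher and 3925 lower genes. The shift of Rrm2b against Rrm2 did not pass under any alternative, with 0.19 to 0.34 when an array was left out, where 0.0571 is the smallest p possible. The replicate numbers 3 to 6 are shared by the groups, and same-numbered arrays deviated together with correlations of 0.06 to 0.20. Each cisplatin array correlated best with the control array of its own number, a hint from the data only. With the replicate block 3 members were higher and 2111 genes of the table, and the Rrm2b shift of 0.27 gave p = 0.125 in an exact sign-flip test over 4 pairs, the smallest possible. Small changes are limited by 4 arrays per group.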
